A study of Rattus norvegicus with 16 samples.

Results

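The genes described here encode the enzymes that take pyruvate into the citric acid cycle and run the cycle. The list of 34 genes follows the known roles of their products, with no threshold on measured values, and was drawn up with earlier results of these data known: the subunits of the pyruvate dehydrogenase complex, its kinases and phosphatases, the mitochondrial pyruvate carrier, pyruvate carboxylase, the cycle enzymes, their NADP-linked or cytosolic relatives and glutamate dehydrogenase. A row of the array table with exactly 1 gene symbol was found for 32 of them, among 13215 genes with such a row, and the brightest row stood for Cs, the only member with a second row. Mpc2 and Fh were not analysed here. RNA came from the livers of 16 male Sprague Dawley rats, 4 per group, and each liver was measured on 1 Affymetrix Rat Exon 1.0 ST array. The fed rats are the control. The P2 rats were fasted until phase 2 of a long fast, in which fat is the chief fuel and protein is spared, and the P3 rats until phase 3, in which protein loss speeds up. The P3r2 rats were fasted until phase 3 and then had food again for 2 days. All groups share strain, sex and tissue, and no drug or altered gene is named for any of them. Ages and the length of the fasts are unstated in the sources used here. Values are log2 signals, so 1 unit is a doubling of signal. The signal of different genes comes from different probes and was not compared.

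Pyruvate dehydrogenase turns pyruvate into acetyl-CoA, a step that animals cannot undo, so it decides whether carbon from glucose can still be made into glucose again. Kinases of the Pdk family switch the complex off by phosphorylation and the phosphatases Pdp1 and Pdp2 switch it on. In the liver, pyruvate can instead be carboxylated to oxaloacetate by pyruvate carboxylase, which starts gluconeogenesis, and the cycle both burns acetyl-CoA and passes amino acid carbon to glucose.

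The arrays correlated at 0.966 to 0.992 within groups. The log2 signals spread least, by their standard deviation, in fed 2, P2 4 and P3 3 (2.12, 2.14 and 2.18, against 2.21 to 2.37 in the other arrays). Changes that they moved most are given with and without them. RNA was taken from pieces of liver that hold all its cell types, so fewer cells of a type and less RNA per cell cannot be told apart. Of the hepatocyte markers, 6 of 8 had a row, with a mean log2 signal of 11.3 to 12.3 in every array (12.02 to 12.34 in fed, 12.06 to 12.30 in P2, 11.31 to 12.13 in P3 and 12.11 to 12.16 in P3r2), and 1 was higher and 2 were lower in P3 than in fed. Against P2, 1 hepatocyte marker was higher and 3 were lower in P3, and against P3, 2 were higher in P3r2. Of 6 measured stellate cell markers, 3 were lower in P2 and 3 in P3 than in fed, with list means of 7.40 to 8.02 in fed, 6.50 to 7.12 in P2, 6.41 to 8.04 in P3 and 6.85 to 7.53 in P3r2. Of 7 measured Kupffer cell markers, 0 were called by limma in any of the 5 comparisons, with 6 of 35 tests at an unadjusted p under 0.05, and of 4 neutrophil markers 0 were called, with 0 of 20. Of 5 measured lymphocyte markers, 1 was lower in P3 than in P2, the only call in 25 tests. Of 2 cholangiocyte markers and 1 endothelial marker, 0 were called. At an unadjusted p under 0.05 these gave 2 of 10 and 1 of 5 tests. For scale, limma called 6.58% of all rows below fed in P2, and 11.3% above and 8.06% below fed in P3. From P2 to P3 it called 13.5% of all rows up and 8.53% down. From P3 to P3r2 it called 10.5% up. The part of these marker shifts in the results below was not tested.

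Against fed livers, the genes did not move as a block. A gene is called here when its limma adjusted p, over 18885 rows, is below 0.05, and each change is given as a log2 fold change ± its standard error from that model (4 arrays per group). In P2, 4 of the 32 genes were higher (12.5%) and 7 were lower (21.9%), against 6.13% of all rows higher and 6.58% lower, and the median change of the members was -0.22 beside 0.05 over all rows. In P3, 8 were higher than in fed (25%) and 7 lower (21.9%), against 11.3% and 8.06% of all rows, and the members' median was 0.10 beside 0.03. Between the 2 fasted groups, 13 genes were higher in P3 than in P2 (40.6%, against 13.5% of all rows) and 6 were lower (18.8%, against 8.53%), with a median of 0.27 beside -0.03. After re-feeding, 12 genes were higher than in P3 (37.5%, against 10.5% of all rows) and 2 were lower (6.25%, against 7.93%), with a median of 0.18 beside -0.03. Against fed livers, the re-fed livers had 8 genes higher (25%, against 2.21% of all rows) and 1 lower (3.12%, against 0.514%), with a median of 0.38 beside 0.02. Of the 32 members, 31 lay among the 9442 brighter rows, those above the median signal. Over these rows the median change was -0.05 in P2 and 0.07 in P3 against fed, and 0.08 in P3 against P2. It was -0.01 in P3r2 against P3 and 0.10 in P3r2 against fed. The shares called among the brighter rows alone were not counted. Long and short genes shifted apart between P2 and fed (Spearman's rho of change and gene length -0.38, and 0.21 for P3 against P2, as a description). This used the 8253 brighter rows with a known gene length. With this trend taken out, the median of the 31 brighter members went from -0.24 to -0.26 in P2 against fed and from 0.30 to 0.36 in P3 against P2.

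The split of calls after re-feeding depended on the scaling: with quantile normalization, 11 genes were higher and 8 lower in P3r2 than in P3, where the deposited values gave 12 and 2. The members' median then went from 0.18 to -0.04, and that of the brighter rows from -0.01 to -0.07. Over all rows the median was -0.03 with both scalings. For P2 against fed, centring every array on its median left 2 genes higher and 7 lower in place of 4 and 7. Leaving out P3 3 raised the count of genes lower in P2 than in fed from 7 to 11, and leaving out fed 2 raised the count lower in P3r2 than in P3 from 2 to 4. The count of genes higher in P3r2 than in fed went from 8 to 5 without P3r2 4. The 4 genes higher in P2 than in fed became 2 without any 1 of 12 arrays: all 4 fed arrays, P2 1, P2 2, P2 4, P3 4 and all 4 P3r2 arrays. Here and below, leaving out an array of a group outside a comparison did not alter the change itself. It altered only the standard error and adjusted p, since all groups share 1 estimate of the spread. The plot of changes against fed shows every member with its interval.

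**Figure D1:**
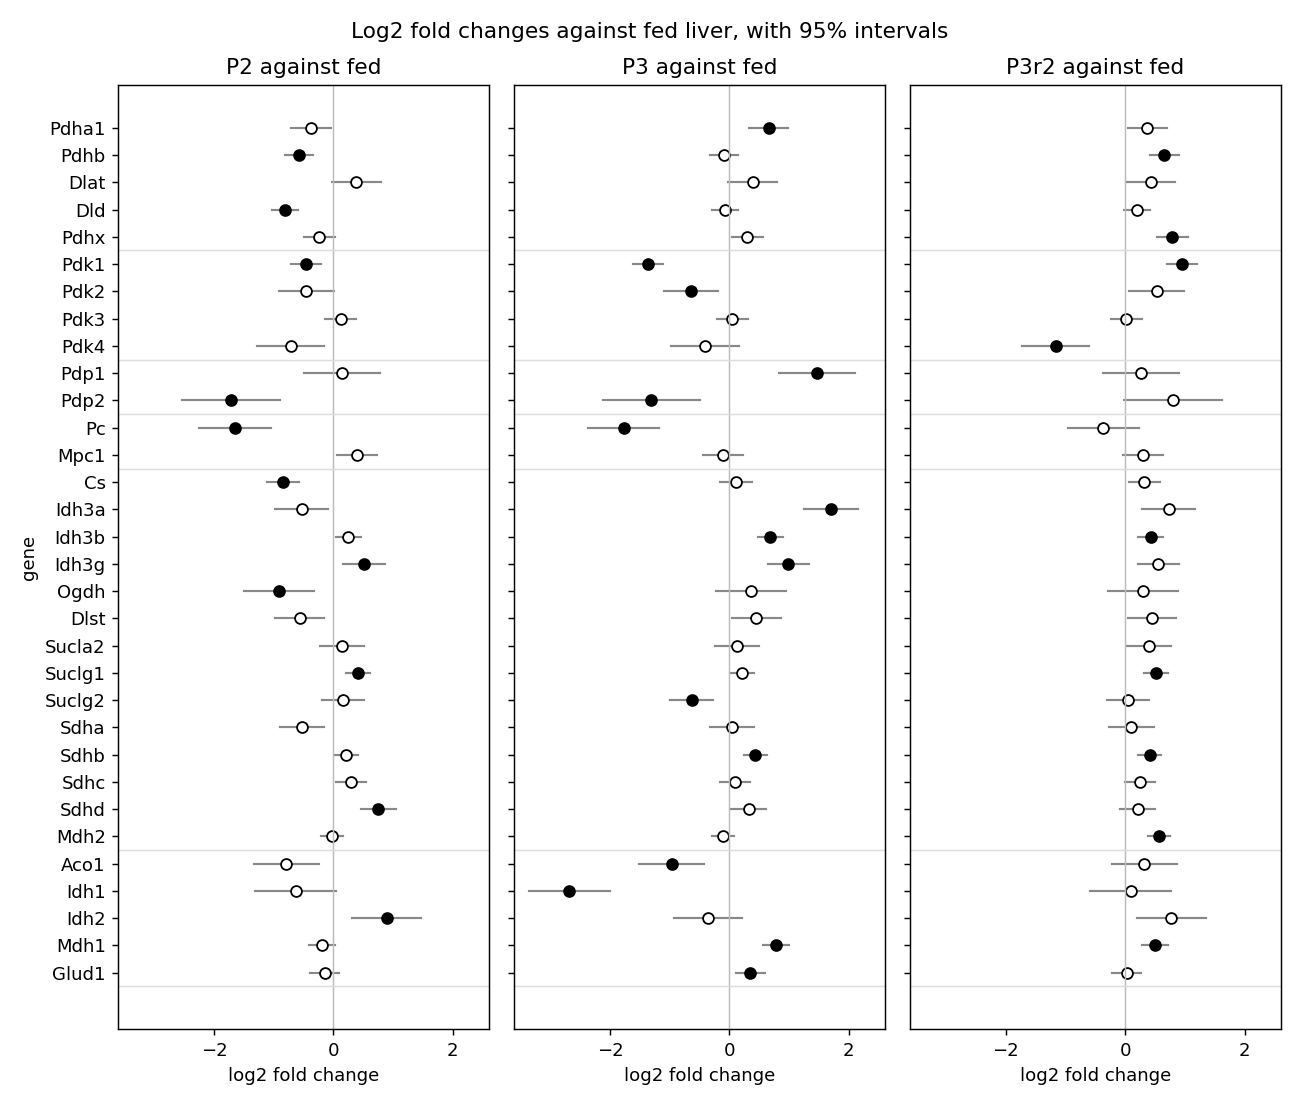
Log2 fold change of the 32 genes in P2, P3 and P3r2 against fed livers, with 95% confidence intervals of the limma fit. Filled points are called at an adjusted p below 0.05. Idh1 in P3 (-2.68) and Idh3a in P3 (1.70) lie at the ends, and most P3r2 points lie right of 0.

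Within the pyruvate dehydrogenase complex, 2 of 5 subunits were lower in phase 2 than in fed livers, against 6.58% of all rows. In phase 3, 4 of 5 were higher than in phase 2, against 13.5% of all rows. Pdhb, the beta subunit of the decarboxylase E1, had log2 signals of 9.46, 9.48, 9.67 and 9.29 in fed, 8.91, 8.95, 8.98 and 8.75 in P2, 9.38, 9.49, 9.13 and 9.53 in P3 and 10.27, 10.08, 10.16 and 10.01 in P3r2. The P2 arrays all lay below and the P3r2 arrays all above every other array, while fed and P3 overlapped. Pdhb fell by 0.58 ± 0.11 (limma adjusted p = 0.00441) in P2 against fed, rose by 0.48 ± 0.11 (limma adjusted p = 0.00471) from P2 to P3 and rose by 0.75 ± 0.11 (limma adjusted p = 0.000151) from P3 to P3r2. In the re-fed livers it stood 0.66 above fed (limma adjusted p = 0.00511).

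Dld, the dihydrolipoamide dehydrogenase E3 that the complex shares with the 2-oxoglutarate and branched-chain complexes, gave 10.15, 10.11, 9.89 and 10.19 in fed and 9.44, 9.35, 9.17 and 9.14 in P2. It gave 10.01, 9.93, 9.95 and 10.16 in P3 and 10.29, 10.27, 10.19 and 10.36 in P3r2. Every P2 array was below every array of the other groups, and the P3 arrays lay among the fed ones. The fall in P2 was -0.81 ± 0.10, limma adjusted p = 0.000271, and the rise from P2 to P3 was 0.74 ± 0.10, limma adjusted p = 7.48e-05. Against fed, P3 differed by -0.07 ± 0.10, limma adjusted p = 0.756.

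Pdha1, the E1 alpha subunit that the kinases phosphorylate, behaved otherwise at phase 3. It gave 10.30, 9.67, 9.89 and 10.02 in fed, 9.89, 9.38, 9.84 and 9.27 in P2, 10.76, 10.64, 10.56 and 10.56 in P3 and 10.51, 10.37, 10.22 and 10.26 in P3r2. All P3 arrays were above all arrays of the other groups, and fed and P2 overlapped. The gene was higher in P3 than in fed by 0.66 ± 0.15 (limma adjusted p = 0.00585) and than in P2 by 1.03 ± 0.15 (limma adjusted p = 0.000169), and P2 differed from fed by -0.38 ± 0.15, limma adjusted p = 0.12. Pdhx, the subunit that holds E3 in the complex, had 6.90 to 7.49 in fed, 6.97 to 7.13 in P2, 7.48 to 7.81 in P3 and 7.98 to 8.14 in P3r2. Its P3r2 arrays lay above all others, and it rose by 0.54 ± 0.12 (limma adjusted p = 0.0041) from P2 to P3 and by 0.49 ± 0.12 (limma adjusted p = 0.00952) from P3 to P3r2, to 0.79 above fed (limma adjusted p = 0.00285). Under quantile normalization the rise from P2 to P3 was 0.30. Its difference between P2 and fed, -0.24, passed the threshold without fed 2 (-0.36, limma adjusted p = 0.0333). Dlat, the E2 acetyltransferase, was called in 0 of the 5 comparisons by limma (1 at an unadjusted p under 0.05), with changes between 0.01 and 0.43. For P2 against fed it was called without P2 3 (0.61, limma adjusted p = 0.0154).

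**Figure D2:**
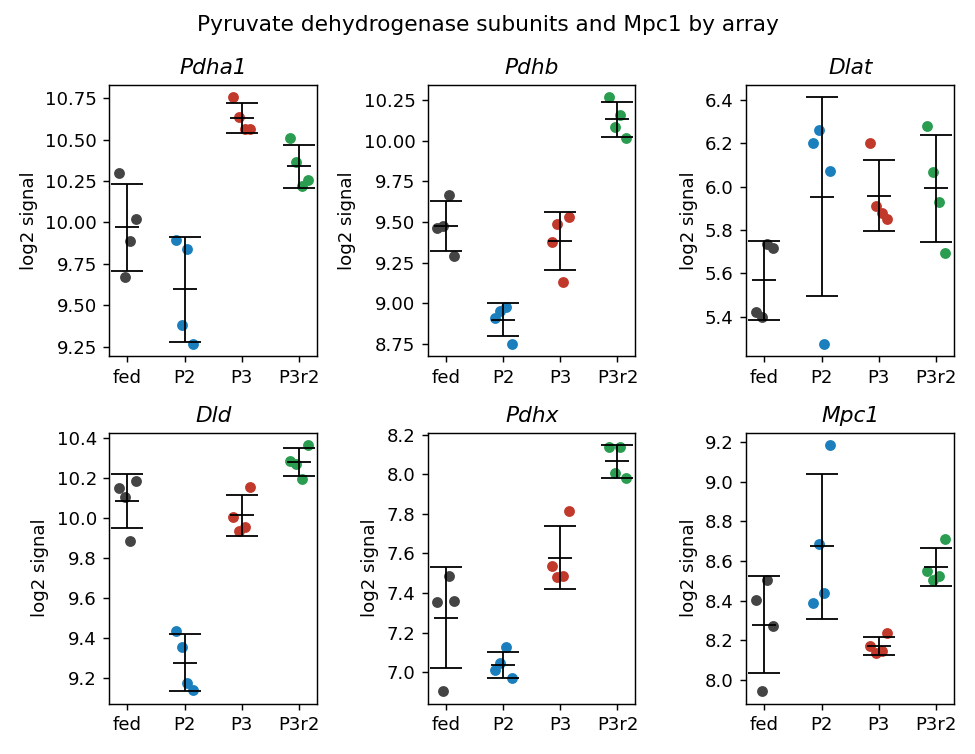
Log2 signal of 5 pyruvate dehydrogenase subunits and of the pyruvate carrier gene Mpc1 in each array, by group. Points are arrays, bars mean ± SD of 4 arrays. The P2 arrays of Dld (9.14 to 9.44) and Pdhb (8.75 to 8.98) lie below all others.

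Among the kinases, Pdk1 changed in all 5 comparisons and Pdk4 was called higher in neither fasted group than in fed livers. Pdk1 gave 8.53, 8.26, 8.68 and 8.39 in fed, 7.85, 8.0, 8.22 and 7.94 in P2, 7.18, 7.17, 7.03 and 7.01 in P3 and 9.60, 9.36, 9.48 and 9.23 in P3r2. No 2 groups overlapped: the order was P3, P2, fed and P3r2 from low to high. Against fed it fell by 0.46 ± 0.12 (limma adjusted p = 0.0194) in P2 and fell by 1.37 ± 0.12 (limma adjusted p = 7.11e-07) in P3, and P3 was below P2 by 0.90 (limma adjusted p = 5.05e-05). From P3 to P3r2 it rose by 2.32 ± 0.12 (limma adjusted p = 2.21e-09), past the fed level by 0.95 (limma adjusted p = 0.000565). The P2 call against fed was lost without any 1 of fed 1, fed 3 or P2 4 (-0.44 to -0.39, limma adjusted p 0.0523 to 0.0562). It was also lost under quantile normalization (-0.36, limma adjusted p = 0.0516) and with the 2 groups fitted alone (-0.46, limma adjusted p = 0.0653).

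Pdk4 is the isoform best known as induced by fasting. Its log2 signals were 8.68, 8.75, 8.84 and 8.93 in fed, 8.10, 8.10, 8.42 and 7.73 in P2, 8.44, 7.46, 9.10 and 8.56 in P3 and 7.78, 7.53, 7.99 and 7.24 in P3r2. All P2 and all P3r2 arrays were below all fed arrays, and the P3 arrays spread from below the P2 range to above the fed range. The change against fed was -0.71 ± 0.27, limma adjusted p = 0.0883 in P2 and -0.41 ± 0.27, limma adjusted p = 0.374 in P3, with 95% intervals of -1.28 to -0.15 and -0.97 to 0.15. The P3 change was -0.10 without P3 2 and -0.66 without the 3 arrays of narrow spread. In P3r2 it was -1.16 ± 0.27, limma adjusted p = 0.0289, a call that was lost without any 1 of fed 1, fed 2, fed 3, fed 4, P3r2 1, P3r2 2 or P3r2 4 (-1.21 to -1.03, limma adjusted p 0.051 to 0.0866). The P2 difference passed the threshold without P3 2 (-0.71, limma adjusted p = 0.0245) or without P3 3 (-0.71, limma adjusted p = 0.0453). P3 2 held the lowest P3 value, and with that array left out P3 was called above P2 (0.61, limma adjusted p = 0.042) and P3r2 below P3 (-1.07, limma adjusted p = 0.00141).

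Pdk2, the kinase usually most abundant in liver, had 9.59 to 10.13 in fed, 8.91 to 9.70 in P2, 8.56 to 9.66 in P3 and 10.25 to 10.50 in P3r2. The re-fed arrays were above all others, and it rose by 1.17 ± 0.21 (limma adjusted p = 0.000933) from P3 to P3r2. Its fall in P3 against fed (-0.64 ± 0.21, limma adjusted p = 0.0462) was lost without any 1 of fed 1, fed 3, fed 4, P2 1, P2 2, P3 3, P3 4, P3r2 1, P3r2 2, P3r2 3 or P3r2 4 (-0.66 to -0.42, limma adjusted p 0.0545 to 0.141). Pdk3, at the 18.8th percentile of rows by signal, was called by limma in 0 of 5 comparisons (0 at an unadjusted p under 0.05), with changes of -0.08 to 0.13.

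The phosphatases differed from fed livers in opposite directions in phase 3. Pdp1, the calcium-stimulated form, gave 4.92, 4.06, 4.45 and 5.26 in fed, 4.36, 5.62, 4.53 and 4.78 in P2, 6.36, 5.43, 6.29 and 6.52 in P3 and 5.04, 4.75, 5.09 and 4.85 in P3r2. All P3 arrays were above all fed arrays and above all P3r2 arrays, while 1 P2 array lay within the P3 range. Pdp1 rose by 1.48 ± 0.30 (limma adjusted p = 0.00189) in P3 against fed and by 1.33 ± 0.30 (limma adjusted p = 0.00408) against P2, and it fell by 1.22 ± 0.30 (limma adjusted p = 0.00832) with re-feeding. Pdp2, the form linked to insulin, gave 7.11, 7.23, 7.06 and 7.26 in fed, 5.80, 6.19, 5.64 and 4.16 in P2, 6.52, 5.55, 4.93 and 6.45 in P3 and 8.10, 8.24, 7.84 and 7.66 in P3r2. Fed and re-fed arrays all lay above the arrays of both fasted groups. Pdp2 fell by 1.72 ± 0.38 (limma adjusted p = 0.01) in P2 and fell by 1.30 ± 0.38 (limma adjusted p = 0.0246) in P3 against fed, and rose by 2.10 ± 0.38 (limma adjusted p = 0.000945) from P3 to P3r2. The P3 call against fed was lost without any 1 of fed 2, fed 4, P3 2 or P3 3 (-1.28 to -0.99, limma adjusted p 0.0515 to 0.083). Without the 3 arrays of narrow spread, the P2 fall was -1.27, limma adjusted p = 0.00667.

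Pyruvate carboxylase, Pc, was lower in both fasted groups than in fed livers. Its arrays read 10.85, 10.64, 10.77 and 10.78 in fed, 9.47, 9.17, 9.31 and 8.49 in P2, 9.56, 9.56, 8.02 and 8.82 in P3 and 10.58, 10.40, 10.33 and 10.27 in P3r2. Each fed array lay above each re-fed array, and each re-fed array above each fasted one. Pc fell by 1.64 ± 0.28 (limma adjusted p = 0.0022) in P2 and fell by 1.77 ± 0.28 (limma adjusted p = 0.000251) in P3 against fed, and rose by 1.402 ± 0.28 (limma adjusted p = 0.00194) with re-feeding. Without P3 3, the lowest array, the P3 change against fed was -1.44, limma adjusted p = 0.000206, and the rise with re-feeding 1.08, limma adjusted p = 0.00237. Pck1, phosphoenolpyruvate carboxykinase, which takes the next step from oxaloacetate towards glucose, rose by 1.42 ± 0.35 (limma adjusted p = 0.0083) in P3 against fed and fell by 4.60 ± 0.35 (limma adjusted p = 2.18e-07) from P3 to P3r2. Pklr, the liver pyruvate kinase that works the other way, fell by 6.04 ± 0.33 (limma adjusted p = 7.22e-09) in P3 against fed. Mpc1, a subunit of the carrier that brings pyruvate into mitochondria, had 7.94 to 8.502 in fed, 8.39 to 9.19 in P2, 8.14 to 8.24 in P3 and 8.502 to 8.71 in P3r2. It was called only from P2 to P3 (-0.50 ± 0.16, limma adjusted p = 0.0313), a call lost without any 1 of P2 2, P2 4, P3 1, P3 2, P3 3 or P3 4 (-0.52 to -0.33, limma adjusted p 0.0533 to 0.0902). For P3r2 against P3 it was called without P2 4 (0.40, limma adjusted p = 0.0267).

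**Figure D3:**
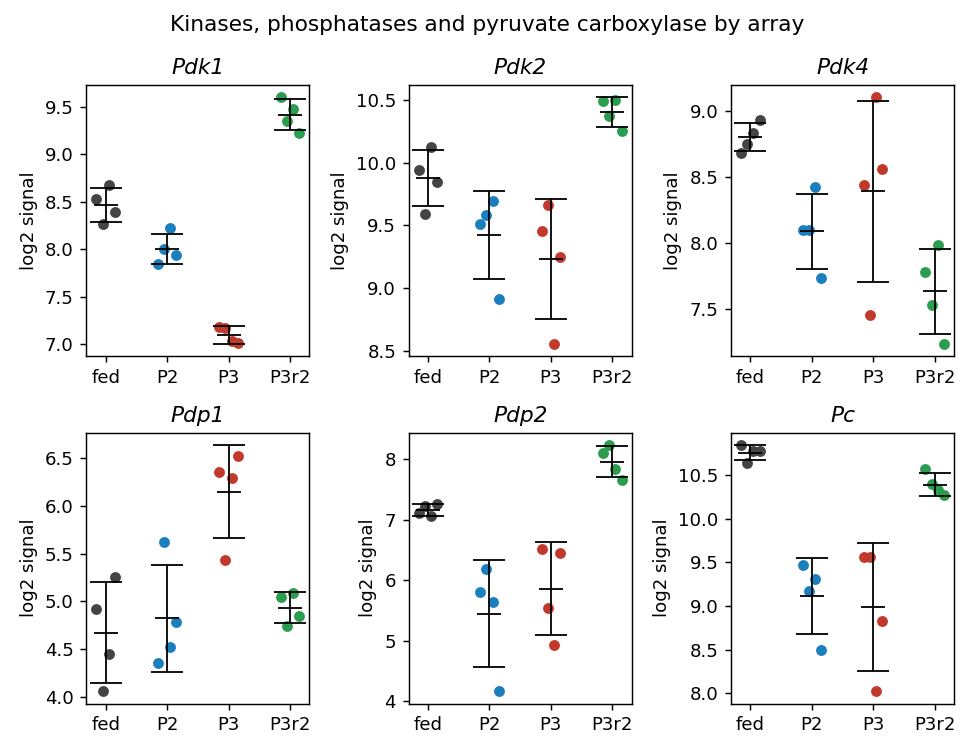
Log2 signal of 3 kinases and both phosphatases of pyruvate dehydrogenase and of pyruvate carboxylase in each array, by group. Points are arrays, bars mean ± SD of 4 arrays. Pdk1 steps down from fed to P3 (7.01 to 7.18) and is highest in P3r2 (9.23 to 9.60), and Pdk4 ranges from 7.46 to 9.10 in P3 around 8.68 to 8.93 in fed.

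The isocitrate dehydrogenases held both the largest rise and the largest fall of the 32 genes in P3 against fed: Idh3a, of the NAD-linked enzyme of the cycle, and Idh1, an NADP-linked form. Idh3a, the catalytic subunit of the NAD-linked enzyme, gave 7.91, 7.40, 8.15 and 8.13 in fed, 7.65, 7.67, 7.40 and 6.76 in P2, 9.69, 9.29, 9.45 and 9.98 in P3 and 8.62, 8.66, 8.70 and 8.53 in P3r2. All P3 arrays were above all others, the re-fed arrays lay next, and fed and P2 overlapped. In P3, Idh3a rose by 1.70 ± 0.21 (limma adjusted p = 2.41e-05) against fed and by 2.23 ± 0.21 (limma adjusted p = 3.55e-06) against P2, and it fell by 0.97 ± 0.21 (limma adjusted p = 0.00342) with re-feeding. The P2 difference from fed was -0.53 ± 0.21, limma adjusted p = 0.107, and it was called without fed 2 (-0.70, limma adjusted p = 0.0381). The re-fed livers differed from fed by 0.73 ± 0.21, limma adjusted p = 0.0833, and were called without P2 4 (0.73, limma adjusted p = 0.0343).

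The other subunits of that enzyme, which regulate it, rose as well. Idh3b gave 10.11, 9.83, 10.12 and 10.15 in fed, 10.31, 10.43, 10.22 and 10.28 in P2, 10.68, 10.61, 10.91 and 10.77 in P3 and 10.42, 10.56, 10.49 and 10.46 in P3r2. The P3 arrays were again above all others. It rose by 0.69 ± 0.10 (limma adjusted p = 9.86e-05) in P3 against fed and by 0.43 ± 0.10 (limma adjusted p = 0.00434) against P2, and stood 0.43 above fed after re-feeding (limma adjusted p = 0.0298). Under quantile normalization the rise from P2 to P3 was 0.67. The call after re-feeding was lost without any 1 of fed 1, fed 2, P3r2 1, P3r2 2, P3r2 3 or P3r2 4 (0.36 to 0.45, limma adjusted p 0.0512 to 0.0939). Idh3g had 8.23 to 8.88 in fed, 9.03 to 9.38 in P2, 9.39 to 9.94 in P3 and 9.10 to 9.47 in P3r2. It rose by 0.99 ± 0.16 (limma adjusted p = 0.000357) in P3 against fed. Its P2 call against fed (0.52 ± 0.16, limma adjusted p = 0.0494) was lost without any 1 of fed 1, fed 2, fed 3, fed 4, P2 1, P2 2, P2 4, P3 2, P3 4, P3r2 1, P3r2 2, P3r2 3 or P3r2 4 (0.36 to 0.58, limma adjusted p 0.0501 to 0.134). From P2 to P3 it changed by 0.47 ± 0.16, limma adjusted p = 0.051, called without fed 2 (0.47, limma adjusted p = 0.0181) or without P3 1 (0.57, limma adjusted p = 0.0276). From P3 to P3r2 it changed by -0.44 ± 0.16, limma adjusted p = 0.0819, called without fed 2 (-0.44, limma adjusted p = 0.0311) or without P3 1 (-0.54, limma adjusted p = 0.0399).

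Idh1, the cytosolic NADP-linked form, which makes NADPH outside mitochondria, went the other way. It gave 11.87, 11.71, 11.83 and 11.91 in fed, 11.30, 11.28, 11.38 and 10.85 in P2, 9.59, 9.65, 7.72 and 9.65 in P3 and 11.95, 11.97, 11.92 and 11.83 in P3r2. The P3 arrays were below all P2 arrays and these below all fed arrays, while fed and re-fed overlapped. In P3 it fell by 2.68 ± 0.32 (limma adjusted p = 1.7e-05) against fed and fell by 2.05 ± 0.32 (limma adjusted p = 0.000229) against P2, and it rose by 2.77 ± 0.32 (limma adjusted p = 1.36e-05) with re-feeding. P3 3 lay far below the other P3 arrays, and without it the change was -2.20, limma adjusted p = 1.57e-08 against fed, and -1.58, limma adjusted p = 8.85e-07 against P2. The P2 change against fed, -0.63 ± 0.32, limma adjusted p = 0.207, was called without P3 3 (-0.63, limma adjusted p = 0.00242). Idh2, the mitochondrial NADP-linked form, gave 8.96, 8.46, 8.99 and 8.92 in fed, 9.83, 9.77, 9.48 and 9.81 in P2, 8.83, 9.16, 7.41 and 8.53 in P3 and 9.73, 9.44, 9.59 and 9.66 in P3r2. All P2 arrays were above all fed and all P3 arrays, and fed and P3 overlapped. It fell by 1.24 ± 0.27 (limma adjusted p = 0.00303) from P2 to P3 and rose by 1.13 ± 0.27 (limma adjusted p = 0.00688) from P3 to P3r2. P3 3 was its lowest array, and without it these changes were -0.89, limma adjusted p = 0.00106, and 0.77, limma adjusted p = 0.00383, while P3 against fed went from -0.35 to 0.0048. Its rise in P2 against fed (0.89 ± 0.27, limma adjusted p = 0.0417) was lost without any 1 of fed 1, fed 2, fed 3, fed 4, P2 1, P2 2, P2 4, P3 4, P3r2 1, P3r2 2, P3r2 3 or P3r2 4 (0.77 to 0.95, limma adjusted p 0.0508 to 0.103). Re-fed against fed it was called without P3 3 (0.77, limma adjusted p = 0.012).

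Aco1, the cytosolic aconitase that doubles as an iron regulatory protein, had 9.57 to 10.13 in fed, 8.32 to 9.77 in P2, 8.48 to 9.29 in P3 and 10.13 to 10.35 in P3r2. It fell by 0.96 ± 0.26 (limma adjusted p = 0.0135) in P3 against fed and rose by 1.28 ± 0.26 (limma adjusted p = 0.00195) with re-feeding. Its P2 change, -0.79 ± 0.26, limma adjusted p = 0.0553, was called without fed 2 (-0.91, limma adjusted p = 0.0426), without P2 1 (-0.997, limma adjusted p = 0.0196), without P2 3 (-0.91, limma adjusted p = 0.0406) or without P3 3 (-0.79, limma adjusted p = 0.0394).

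**Figure D4:**
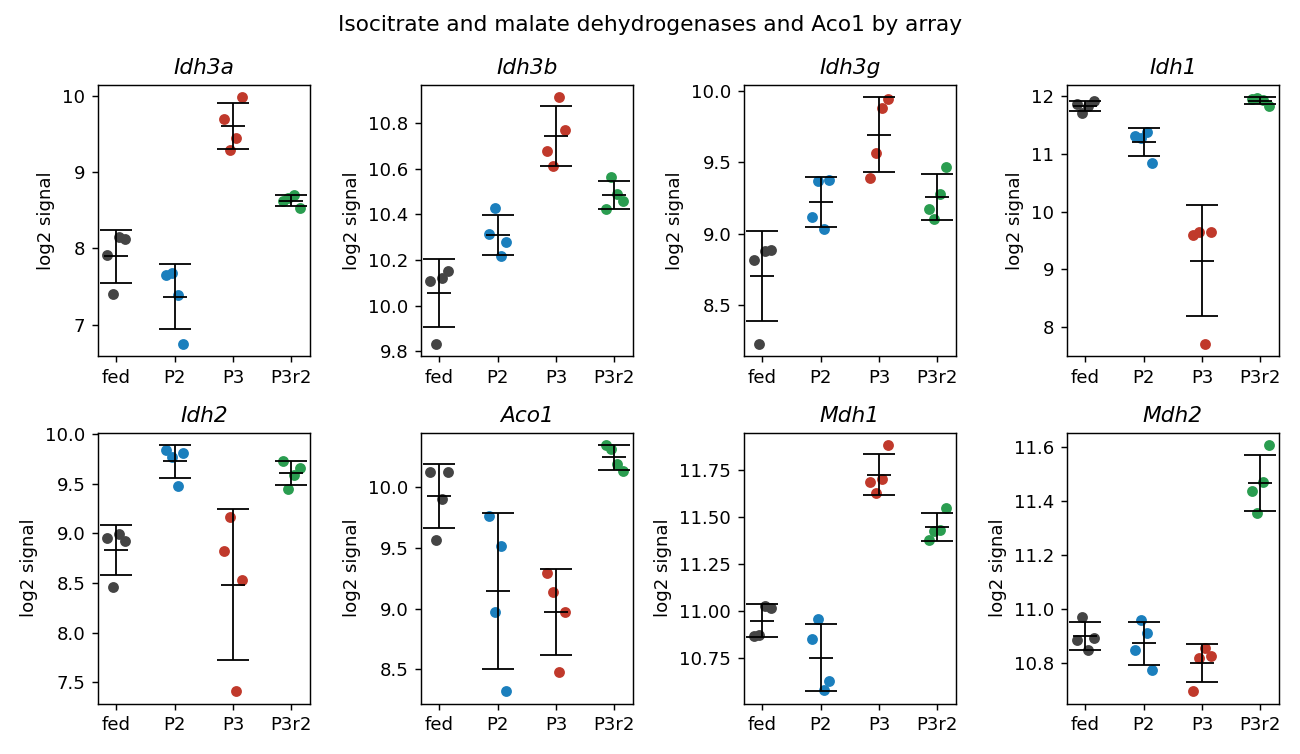
Log2 signal of the isocitrate dehydrogenase genes, Aco1 and the malate dehydrogenase genes in each array, by group. Points are arrays, bars mean ± SD of 4 arrays. In P3, Idh3a (9.29 to 9.98) is highest and Idh1 (7.72 to 9.65) lowest of the 4 groups.

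The promoters of Idh3b, Idh3g, Ogdh and Idh1 are shown because these genes rose or fell in different parts of the fast and hold matches of the motifs searched. Each is the 250 bases before the annotated start, 5′ to 3′ on the gene's strand, from RefSeq on GRCr8: chr3:137939991-137940240, minus strand for Idh3b, chrX:156675483-156675732, minus strand for Idh3g, chr14:85363781-85364030, plus strand for Ogdh and chr9:74049475-74049724, minus strand for Idh1. Capitals mark exact matches, on either strand, of the motifs searched: the nuclear receptor site AGGTCA, the estrogen-related receptor element TNAAGGTCA, the NRF1 core GCGCATGC, the ETS site CCGGAAG, the cyclic AMP response element TGACGTCA, the FOXO site TGTTTAC, the glucocorticoid receptor palindrome ACANNNTGT and the GC box GGGCGG.
Idh3b: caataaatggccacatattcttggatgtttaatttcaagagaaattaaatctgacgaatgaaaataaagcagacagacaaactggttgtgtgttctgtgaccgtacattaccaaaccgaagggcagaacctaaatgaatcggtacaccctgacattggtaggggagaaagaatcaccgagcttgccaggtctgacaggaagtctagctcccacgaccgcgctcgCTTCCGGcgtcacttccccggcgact
Idh3g: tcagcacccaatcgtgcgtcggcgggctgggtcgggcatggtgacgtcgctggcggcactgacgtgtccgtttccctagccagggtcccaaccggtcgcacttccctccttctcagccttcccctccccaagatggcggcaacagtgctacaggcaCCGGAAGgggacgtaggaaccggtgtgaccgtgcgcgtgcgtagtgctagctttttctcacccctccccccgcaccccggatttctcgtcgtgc
Ogdh: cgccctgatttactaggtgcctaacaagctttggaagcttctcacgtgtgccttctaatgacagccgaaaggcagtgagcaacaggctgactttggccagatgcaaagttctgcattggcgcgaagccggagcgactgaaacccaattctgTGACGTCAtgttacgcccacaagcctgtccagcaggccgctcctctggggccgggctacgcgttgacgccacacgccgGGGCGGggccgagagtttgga
Idh1: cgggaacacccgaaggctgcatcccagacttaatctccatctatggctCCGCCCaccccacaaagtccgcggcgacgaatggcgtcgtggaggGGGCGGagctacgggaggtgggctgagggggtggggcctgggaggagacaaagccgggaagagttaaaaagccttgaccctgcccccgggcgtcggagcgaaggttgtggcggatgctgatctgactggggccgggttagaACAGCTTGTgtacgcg
In Idh3b and Idh3g the capitals are the ETS site CCGGAAG of GABPA, an activator of many mitochondrial genes, starting 26 and 94 bases before the start. In Ogdh they are the cyclic AMP response element TGACGTCA and the GC box GGGCGG, and in Idh1 a pair of GC boxes and the glucocorticoid receptor palindrome ACANNNTGT. Of the 32 members, 28 had a promoter in the table, all but Idh3a, Pc, Pdp1 and Pdp2. The ETS site was in 7 of these 28 (25%), those of Dlst, Glud1, Idh3b, Idh3g, Mdh2, Sdhb and Sdhd, against 7.27% of all 33469 promoters. GGGCGG was in 17 of 28 (60.7%) against 30.5%, and the members' promoters held a median of 18 CpG dinucleotides against 5 in all. GCGCATGC of NRF1 and TGACGTCA were in 2 each (7.14%, against 2.2% and 1.59%), and ACANNNTGT in 2 (7.14%, against 5.81%). TGTTTAC of FOXO factors was in 1 (3.57%, against 3.21%), and the nuclear receptor site AGGTCA in 2 (7.14%, against 14.1%). TNAAGGTCA, the longer element of estrogen-related receptors, which contains AGGTCA, was in 0, against 1.04%. The 33469 promoters are all those in the reference, not only those of the 13215 genes with a row. They were not matched to the members for signal or CpG count, so the shares do not set the members apart from other genes with CpG-rich promoters. The motifs were chosen with the changes known, and a match describes letters in this window, not binding.

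Citrate synthase, Cs, which joins acetyl-CoA to oxaloacetate, and the 2-oxoglutarate dehydrogenase complex had their lowest mean signals in phase 2. Cs gave 8.57, 8.34, 8.52 and 8.498 in fed, 7.61, 7.59, 7.76 and 7.59 in P2, 8.39, 8.34, 8.64 and 8.99 in P3 and 8.85, 8.78, 8.83 and 8.74 in P3r2. The P2 arrays were below all others, and fed and P3 overlapped. It fell by 0.84 ± 0.12 (limma adjusted p = 0.000883) in P2 against fed and rose by 0.95 ± 0.12 (limma adjusted p = 5.2e-05) from P2 to P3. Re-fed against P3, it was called without P3 4 (0.34, limma adjusted p = 0.0338). With the mean of both its rows the change was -0.46 in P2 against fed and 0.51 from P2 to P3. The dimmer second row of Cs was called by limma in 0 of the 5 comparisons, with 0 at an unadjusted p under 0.05.

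Ogdh, the decarboxylase of the 2-oxoglutarate complex, gave 10.12, 10.004, 10.01 and 10.21 in fed, 9.78, 9.23, 9.37 and 8.36 in P2, 10.84, 10.68, 9.57 and 10.70 in P3 and 10.44, 10.41, 10.44 and 10.27 in P3r2. The P2 arrays were below all fed and all re-fed arrays, and P3 3 alone of the P3 arrays lay below the fed range. Ogdh rose by 1.26 ± 0.28 (limma adjusted p = 0.00326) from P2 to P3. Its fall in P2 against fed (-0.90 ± 0.28, limma adjusted p = 0.0436) was lost without any 1 of fed 1, fed 2, fed 3, fed 4, P2 2, P2 4, P3 2, P3r2 1, P3r2 2, P3r2 3 or P3r2 4 (-0.93 to -0.63, limma adjusted p 0.0504 to 0.132). Without fed 2, P2 4 and P3 3, P3 was above fed by 0.62, limma adjusted p = 0.00453, against 0.36 ± 0.28, limma adjusted p = 0.478 with them. Dlst, the succinyltransferase of the complex, had 8.80 to 9.06 in fed, 7.64 to 8.77 in P2, 9.17 to 9.52 in P3 and 9.19 to 9.53 in P3r2, and rose by 1.02 ± 0.19 (limma adjusted p = 0.00111) from P2 to P3. Against fed, Dlst was called lower in P2 without P2 3 (-0.69, limma adjusted p = 0.0314), higher in P3 without P2 4 (0.45, limma adjusted p = 0.00865) and higher in P3r2 without P2 4 (0.45, limma adjusted p = 0.0437).

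The subunits of succinyl-CoA ligase did not move together. Suclg2, the subunit of the GTP-forming enzyme, gave 9.16, 8.73, 9.21 and 9.25 in fed, 9.27, 9.18, 9.36 and 9.17 in P2, 8.81, 8.73, 8.14 and 8.14 in P3 and 9.25, 9.31, 9.05 and 8.93 in P3r2. P3 was below P2 and P3r2 in every array, with 1 fed array inside the P3 range. It fell by 0.63 ± 0.17 (limma adjusted p = 0.0121) against fed and fell by 0.79 ± 0.17 (limma adjusted p = 0.00245) against P2, and rose by 0.68 ± 0.17 (limma adjusted p = 0.00793) with re-feeding. Suclg1, the alpha subunit common to both ligases, had 9.73 to 9.94 in fed, 10.15 to 10.33 in P2, 9.84 to 10.18 in P3 and 10.29 to 10.38 in P3r2. It rose by 0.42 ± 0.09 (limma adjusted p = 0.0102) in P2 against fed and stood 0.52 above fed after re-feeding (limma adjusted p = 0.00738). Its rise from P3 to P3r2 (0.31 ± 0.09, limma adjusted p = 0.0301) became -0.018 under quantile normalization and was lost without any 1 of P3 3, P3 4, P3r2 2, P3r2 3 or P3r2 4 (0.24 to 0.32, limma adjusted p 0.0502 to 0.0975). P3 against fed was called without P3 3 (0.28, limma adjusted p = 0.0474). Sucla2, the subunit of the ATP-forming enzyme, was called by limma in 0 of 5 comparisons (1 at an unadjusted p under 0.05), with changes of -0.01 to 0.40.

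Of the succinate dehydrogenase subunits, which also form complex II of the respiratory chain, Sdhd, a membrane anchor, gave 9.50, 9.40, 9.69 and 9.20 in fed and 10.07, 10.27, 9.93 and 10.55 in P2. It gave 9.59, 9.83, 9.92 and 9.74 in P3 and 9.63, 9.55, 9.61 and 9.82 in P3r2. The P2 arrays were above all fed, P3 and re-fed arrays. Sdhd rose by 0.76 ± 0.14 (limma adjusted p = 0.00341) in P2 against fed. Its fall from P2 to P3 (-0.43 ± 0.14, limma adjusted p = 0.0345) was lost without any 1 of P2 2, P2 4, P3 1, P3 2 or P3 4 (-0.45 to -0.32, limma adjusted p 0.0508 to 0.114), and was -0.24 under quantile normalization.

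Sdhb, the iron-sulfur subunit, had 7.42 to 7.78 in fed, 7.73 to 7.95 in P2, 8.03 to 8.12 in P3 and 8.04 to 8.08 in P3r2. It rose by 0.44 ± 0.09 (limma adjusted p = 0.00271) in P3 against fed, and its call in P3r2 against fed (0.41 ± 0.09, limma adjusted p = 0.0289) was lost without any 1 of fed 2, fed 4, P3r2 1, P3r2 2, P3r2 3 or P3r2 4 (0.33 to 0.41, limma adjusted p 0.0634 to 0.078). Under quantile normalization the P3r2 change was 0.19 (limma adjusted p = 0.588). The P3 change was not called either under quantile normalization (0.33, limma adjusted p = 0.0683). Sdha, the flavoprotein that oxidises succinate, had 9.93 to 10.28 in fed, 9.13 to 9.96 in P2, 9.84 to 10.51 in P3 and 10.05 to 10.44 in P3r2. It rose by 0.57 ± 0.18 (limma adjusted p = 0.028) from P2 to P3, a call lost without any 1 of P2 4, P3 1, P3 2 or P3 4 (0.40 to 0.57, limma adjusted p 0.0591 to 0.0954). Sdha was called lower in P2 than in fed without fed 2 (-0.61, limma adjusted p = 0.0456), without P2 1 (-0.63, limma adjusted p = 0.0394) or without P3 3 (-0.52, limma adjusted p = 0.039). Sdhc, the other membrane anchor, was likewise called in 0 of 5 (1 at an unadjusted p under 0.05), with changes of -0.20 to 0.30.

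**Figure D5:**
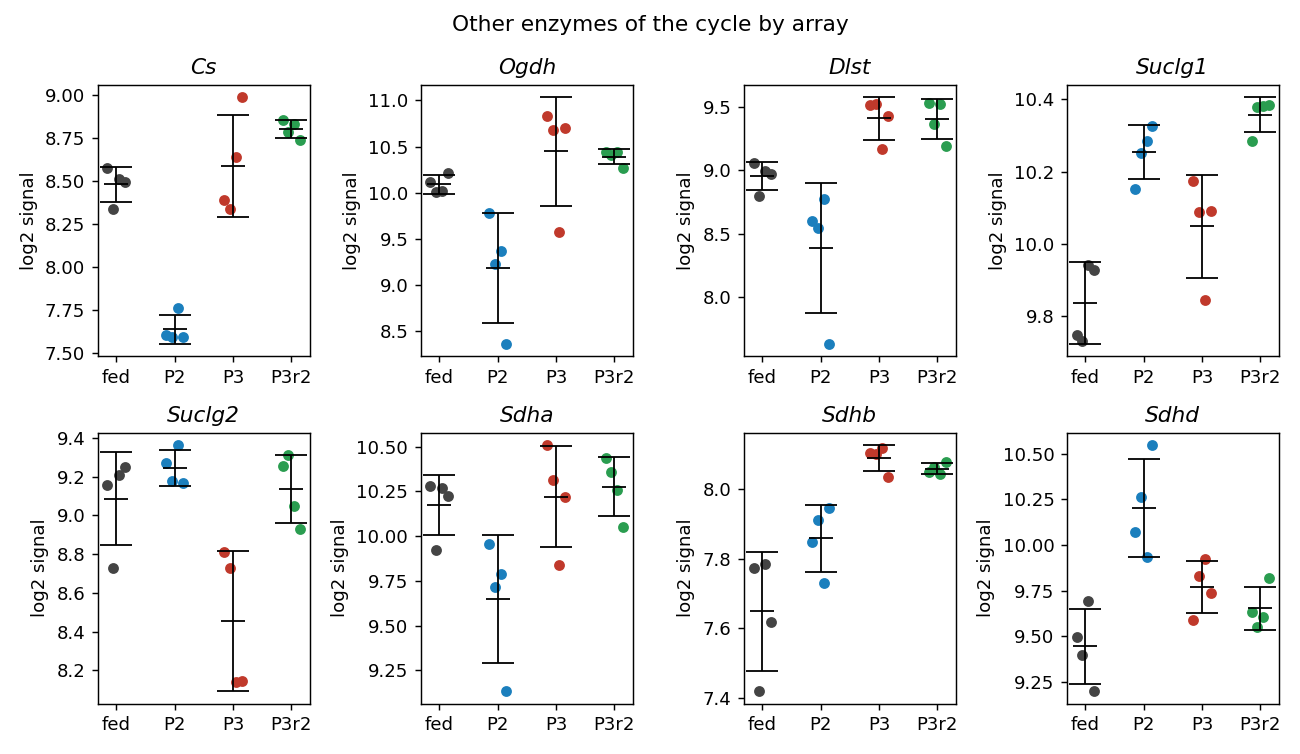
Log2 signal of citrate synthase and of subunits of the 2-oxoglutarate, succinyl-CoA and succinate enzymes in each array, by group. Points are arrays, bars mean ± SD of 4 arrays. The P2 arrays of Cs (7.59 to 7.76) lie below all others and those of Sdhd (9.93 to 10.55) above all others.

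The malate dehydrogenases differed in when they were high. Mdh1, the cytosolic form of the malate-aspartate shuttle, gave 10.87, 10.87, 11.03 and 11.02 in fed, 10.85, 10.96, 10.58 and 10.63 in P2, 11.69, 11.63, 11.70 and 11.88 in P3 and 11.38, 11.42, 11.43 and 11.55 in P3r2. P3 arrays were highest, re-fed arrays next, and neither group overlapped with any other. Mdh1 rose by 0.78 ± 0.10 (limma adjusted p = 4.26e-05) in P3 against fed and by 0.97 ± 0.10 (limma adjusted p = 8.51e-06) against P2. After re-feeding it was 0.50 above fed (limma adjusted p = 0.016), a call lost without P3r2 4 (0.46, limma adjusted p = 0.0536). Mdh2, the mitochondrial form of the cycle, gave 10.89, 10.97, 10.85 and 10.90 in fed, 10.85, 10.96, 10.91 and 10.78 in P2, 10.70, 10.82, 10.86 and 10.83 in P3 and 11.44, 11.36, 11.47 and 11.61 in P3r2. Only the re-fed arrays stood apart, above all others. Mdh2 rose by 0.67 ± 0.08 (limma adjusted p = 3.51e-05) from P3 to P3r2, to 0.57 above fed (limma adjusted p = 0.00234), and the rise was 0.40 under quantile normalization.

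Glud1, glutamate dehydrogenase, which feeds glutamate carbon into the cycle as 2-oxoglutarate, had 11.54 to 11.88 in fed, 11.31 to 11.80 in P2, 12.07 to 12.24 in P3 and 11.77 to 11.89 in P3r2. It rose by 0.49 ± 0.11 (limma adjusted p = 0.00506) from P2 to P3. Its rise in P3 against fed (0.35 ± 0.11, limma adjusted p = 0.0421) was lost without any 1 of fed 1, fed 2, fed 3, fed 4, P2 2, P2 3, P3 1, P3 2, P3 3, P3 4, P3r2 1, P3r2 2, P3r2 3 or P3r2 4 (0.27 to 0.38, limma adjusted p 0.0501 to 0.127). The change from P3 to P3r2 (-0.32 ± 0.11, limma adjusted p = 0.0629) was called without fed 2 (-0.32, limma adjusted p = 0.0396) or without P2 4 (-0.32, limma adjusted p = 0.022).

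Genes around the cycle were taken from lists drawn up with earlier results known. Of 18 measured genes of anaplerosis and mitochondrial shuttles, those above and below fed numbered 4 and 4 in P2 and 7 and 7 in P3, and 4 and 1 in P3r2. The shares of all rows were 6.13% and 6.58% in P2, 11.3% and 8.06% in P3, and 2.21% and 0.514% in P3r2. Against P2, 6 were higher and 3 lower in P3 (13.5% and 8.53% of all rows). Against P3, 8 were higher and 7 lower in P3r2 (10.5% and 7.93% of all rows). Got1, the cytosolic aspartate aminotransferase of the shuttle of Mdh1, had 10.26 to 10.99 in fed and 13.29 to 13.52 in P3, a rise by 2.81 ± 0.22 (limma adjusted p = 2.41e-07). Acly, which splits citrate in the cytosol, fell by 3.21 ± 0.27 (limma adjusted p = 1.02e-05) in P2 and fell by 3.31 ± 0.27 (limma adjusted p = 5.37e-07) in P3 against fed and rose by 4.56 ± 0.27 (limma adjusted p = 1.51e-08) with re-feeding. Me1, the NADPH-forming malic enzyme, fell by 1.98 ± 0.38 (limma adjusted p = 0.00452) in P2 against fed, and was 2.01 above fed in P3r2 (limma adjusted p = 0.0102).

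Of 6 measured genes of the related branched-chain and other 2-oxoacid complexes, 2 were higher in P3 than in fed and 0 lower by limma (1 lower at an unadjusted p under 0.05). The shares of all rows were 11.3% higher and 8.06% lower. Dbt, the E2 of the branched-chain complex, rose by 1.88 ± 0.14 (limma adjusted p = 2.34e-07), and Ppm1k, the phosphatase that activates that complex, rose by 1.45 ± 0.28 (limma adjusted p = 0.00134). Both were lower in P3r2 than in P3: Dbt fell by 1.43 ± 0.14 (limma adjusted p = 3.44e-06) and Ppm1k fell by 2.36 ± 0.28 (limma adjusted p = 1.84e-05). Bckdk, the kinase that inhibits it, fell by 0.82 ± 0.13 (limma adjusted p = 0.00172) in P2 against fed. Of 8 measured genes that attach lipoate or assemble iron-sulfur clusters and complex II, limma called 3 higher and 0 lower in P2 against fed. In P3, 0 were called higher and 6 lower than in P2, with a median of -0.54 beside -0.03 over all rows. An unadjusted p under 0.05 gave 4, 0, 0 and 6. The shares of all rows were 6.13% and 6.58% in P2 against fed, and 13.5% and 8.53% in P3 against P2. Against fed, 2 were lower in P3 (8.06% of all rows), and 3 were higher in P3r2 than in P3 (10.5% of all rows). Lias, lipoate synthase, whose product the E2 subunits carry, fell by 1.25 ± 0.20 (limma adjusted p = 0.000326) from P2 to P3, and Nfs1, the cysteine desulfurase of cluster assembly, fell by 1.39 ± 0.17 (limma adjusted p = 2.64e-05) in P3 against fed. Fdx1, a ferredoxin needed for lipoylation, rose by 1.32 ± 0.22 (limma adjusted p = 0.00215) in P2 against fed and fell by 1.21 ± 0.22 (limma adjusted p = 0.000943) from P2 to P3.

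Of 13 measured regulators of the kinases and of mitochondrial genes, those above and below fed numbered 3 and 1 in P2 and 7 and 0 in P3 (9 and 0 at an unadjusted p under 0.05). The shares of all rows above and below fed were 6.13% and 6.58% in P2 and 11.3% and 8.06% in P3. Against P2, limma called 10 of the 13 regulators higher and 1 lower in P3, where 13.5% and 8.53% of all rows were called. Esrra, the estrogen-related receptor alpha that drives many cycle genes, had 5.89 to 6.69 in fed, 6.76 to 6.82 in P2, 7.91 to 8.74 in P3 and 6.83 to 6.96 in P3r2. It rose by 2.13 ± 0.17 (limma adjusted p = 4.75e-07) in P3 against fed and fell by 1.48 ± 0.17 (limma adjusted p = 1.76e-05) with re-feeding. Its coactivator Ppargc1a had 4.34 to 5.08 in fed, 5.36 to 6.17 in P2, 8.82 to 10.37 in P3 and 5.57 to 5.95 in P3r2, and fell by 4.01 ± 0.29 (limma adjusted p = 9.89e-08) with re-feeding. Ppara, the fatty acid receptor known to induce Pdk4, changed by -0.48 ± 0.29, limma adjusted p = 0.301 in P2 and by 0.81 ± 0.29, limma adjusted p = 0.0699 in P3 against fed, and rose by 1.29 ± 0.29 (limma adjusted p = 0.00459) from P2 to P3. With re-feeding, 2 regulators were higher and 5 lower than in P3 (10.5% and 7.93% of all rows). Against fed 1 was higher (2.21% of all rows), the desuccinylase Sirt5 (0.77 ± 0.12, limma adjusted p = 0.00362).

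After 2 days of food, the members lay mostly at or above the fed level. The 8 genes above fed were Pdhb, Pdhx, Pdk1, Idh3b, Suclg1, Sdhb, Mdh1 and Mdh2, and the 1 below was Pdk4. Under quantile normalization 6 genes were above fed, with Idh3b and Sdhb no longer called, and 1 was below. The members' median against fed was then 0.21 in place of 0.38. Below P3 after re-feeding were Pdp1 and Idh3a, and under quantile normalization Pdha1, Pdk4, Idh3b, Idh3g, Mdh1 and Glud1 were called lower as well. Comparisons that use the same fed or P3 arrays are not independent of each other.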

How the data were processed

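Log2 signals per transcript cluster were deposited by the authors as 1 table of 19418 rows and 16 arrays, in which the software was GCOS 1.4 and Expression Console 1.1, per the labels and the submitters' processing notes. Summarisation and genome build: not given in the sources used here. Base 2 was inferred from the range of the values. A log2 array signal can be compressed at both ends.

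The values were used as deposited. A block of 533 unnamed rows, whose identifiers precede those of the annotation, was dropped. Of the 18885 rows tested, 13327 have 1 gene symbol, 620 several and 4938 none. Of the 34 listed genes, 32 had a row with 1 symbol, and the brightest was used. All 4 groups entered a single linear model of group means, fitted in limma 3.58.1 (R 4.3.3) with eBayes, with 5 contrasts, two-sided tests, Benjamini-Hochberg adjustment over the 18885 rows and a threshold of 0.05. The steps were tested on simulated data. Each array is 1 animal, and their number limits the precision.

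The members, the lists of neighbouring and marker genes and the motifs were chosen with earlier results of these data known. Every member with a row is named, and from each list at most 3 called genes per comparison, those with the largest change, plus Ppargc1a and Ppara. Values of a gene so named are given for other comparisons too. Alternatives were quantile normalization, centring on medians, eBayes with trend, array weights, the 2 groups alone, brighter rows only, averaging a gene's rows, a threshold of 0.01, the replicate number as a block, array spread as a covariate, the length trend taken out, the 3 arrays of narrow spread left out and each array left out. Promoter sequences and gene lengths are from RefSeq on GRCr8, in which the members were found by symbol. Figures were drawn with matplotlib 3.10.9.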

Additional observations from a re-analysis of the deposited data

Results flagged for a closer look

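In 12 of 128 groups (32 genes in 4 groups), 1 array lay so far from the other 3 that its gap to the nearest was more than 0.829 of the group's whole range. Chance gives this in about 1 of 20 groups. In the fed group, fed 2 was the low array for 5 genes: Idh2 (8.46, others 8.92 to 8.99), Idh3b (9.83, others 10.11 to 10.15), Idh3g (8.23, others 8.82 to 8.89), Sdha (9.93, others 10.23 to 10.28) and Glud1 (11.54, others 11.85 to 11.88). In P3, array 3 was low for Idh1 (7.72, others 9.59 to 9.65) and Ogdh (9.57, others 10.68 to 10.84). Both fed 2 and P3 3 are among the arrays of narrow spread. P3 1 was low for Sdhc (10.26, others 10.64 to 10.69), and P3 4 was high for Pdhx (7.81, others 7.48 to 7.54). P2 3 was high for Cs (7.76, others 7.59 to 7.61). In P3r2, array 4 was low for Ogdh (10.27, others 10.41 to 10.44) and array 1 for Suclg1 (10.29, the others at 10.38). The part of these arrays in the differences between groups was not tested beyond leaving each out.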

How the results depend on the processing

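Of 160 changes (32 genes in 5 comparisons), 68 were called, and 48 of these calls were kept under all 28 alternatives. Among the called changes 1 was reversed, that of Suclg1 from P3 to P3r2, at -0.018 under quantile normalization, and some of the changes that were not called also changed sign. Genes higher in P2 than in fed numbered 4, but 2 with arrays centred on their medians, 1 at an adjusted p under 0.01 and 2 to 5 with each array left out. Genes lower in P2 than in fed numbered 7, but 11 with array weights or without the 3 arrays of narrow spread, 4 at 0.01 and 5 to 11 with each array left out. Genes lower in P3 than in fed numbered 7, but 3 at 0.01. Genes lower in P3r2 than in P3 numbered 2, but 8 under quantile normalization, 4 among brighter rows or with array spread as covariate, 5 with array weights or with the length trend taken out, and 2 to 4 with each array left out. Genes higher in P3r2 than in fed numbered 8, but 14 with array weights, 5 at 0.01 and 5 to 10 with each array left out. The 1 gene lower in P3r2 than in fed became 0 at 0.01 (where limma called 1 at 0.05), and 0 to 1 with each array left out. The cause of these moves was not tested.

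Correlations from 4 arrays a group cannot settle whether the replicate numbers pair the animals. Over 24 pairs of arrays with the same number, deviations from the group means correlated at -0.401 to 0.262 (median -0.013), 6 of them over 0.1. Among arrays of the other groups, 3 of 16 arrays correlated best with 1 of their own number. With the number as a replicate block, genes above and below fed numbered 3 and 6 in P2 and 7 and 6 in P3, and 6 and 1 in P3r2. Those above and below P2 in P3 numbered 14 and 5, and those above and below P3 in P3r2 numbered 11 and 3. With 4 arrays a group, small changes can be missed.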
